A study of Homo sapiens with 12 samples.

Results

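The genes described here encode the subunits of 3 large nuclear complexes: RNA polymerase II (Pol II, genes POLR2A to POLR2L), Mediator (MED genes) and Integrator (INTS genes). They were taken by symbol, as protein-coding genes named POLR2A to POLR2L, MED or INTS plus a number in both count tables. The rule was set with earlier results of these data known, and gave 53 of 56104 gene IDs. Of these, 12 were Pol II, 30 were Mediator and 11 were Integrator genes. The subunits now called INTS11, INTS13, INTS14 and INTS15 stood in the tables under the symbols CPSF3L, ASUN, VWA9 and C7orf26, and are described with the partner genes further on. The measurements came from HCT116, a human colorectal carcinoma cell line, kept at passages under 15, as control cells (Ctrl) or with PPM1G knocked out (PPM1G KO). The PPM1G protein removes phosphate from serine and threonine and works in the nucleus. For 4sU-seq, cells took up 4-thiouridine (4sU, 500 µM, for 10 min), and the RNA that carried it was tagged with biotin and captured, so that the reads stand for newly made RNA. RNA-seq read the steady-state pool. Each assay had 3 Ctrl and 3 KO libraries, 12 in all. The titles call the control Ctrl_KO without saying what it carries, and the labels do not state which site was edited, whether the KO cells are 1 clone, or whether the RNA-seq libraries came from separate cultures. P-values then measure the spread between these libraries, which may be technical.

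Pol II transcribes the protein-coding genes of the nucleus. POLR2A and POLR2B form its catalytic cleft, and the long C-terminal tail of POLR2A is phosphorylated and dephosphorylated during each transcription cycle. Mediator carries signals from DNA-bound activators to Pol II at promoters. Its head and middle contact the polymerase, its tail contacts activators, and a separable kinase module (MED12, MED13, CDK8 and cyclin C, or their paralogs) controls its engagement with Pol II. Integrator binds paused Pol II, cuts the nascent RNA with an endonuclease module, and brings protein phosphatase 2A to the elongation complex. It is best known for forming the 3′ ends of small nuclear RNAs.

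The 4sU-seq libraries held 79403238 to 101884166 gene counts and the RNA-seq libraries 30962756 to 42479828. The detection floor was set at 3 counts, or 0.0740 to 0.0973 CPM in RNA-seq and 0.0302 to 0.0365 CPM in 4sU-seq. CPM is a gene's counts scaled to the library total, corrected by TMM, and floors cover counting error only. PPM1G itself checked the labels. Its steady-state level was 326, 293 and 331 CPM in Ctrl and 97.9, 95.02 and 98.0 CPM in KO, and its 4sU-seq level was 242, 271 and 235 against 98.9, 144 and 104 CPM. Both assays called it lower, by a log2 change of -1.71 ± 0.06 (edgeR adjusted p = 1.77e-10) in RNA-seq and -1.11 ± 0.17 (adjusted p = 0.00717) in 4sU-seq. Every log2 change is KO over Ctrl with its standard error, from 3 libraries per group. Of 8 colon epithelial markers, 5 reached 1 CPM in RNA-seq (EPCAM, KRT8, KRT18, CDH1 and CDX2) and 6 in 4sU-seq, and 0 of 3 leukocyte markers did in either. Of 3 fibroblast markers COL1A1 did in both assays, and of 3 endothelial markers PECAM1 and VWF did in 4sU-seq and 0 in RNA-seq. The summed fibroblast markers were at 3.76 to 5.86 CPM in Ctrl and 9.82 to 11.7 CPM in KO in RNA-seq, and at 4.46 to 5.56 and 9.38 to 13.8 CPM in 4sU-seq. The endothelial sum in 4sU-seq was 5.53 to 6.39 and 12.8 to 13.5 CPM. The part of these markers in the results was not tested. Of the 4sU-seq libraries, KO replicate 2 stood apart. Its counts differed from those of KO replicates 1 and 3 by a chi-square per degree of freedom of 303 and 400, against 31.4 between replicates 1 and 3 and 62.0 to 92.9 between Ctrl libraries. In RNA-seq, KO replicates 1 and 2 were closer (1.71) than other pairs (10.5 to 19.0), but still differed by more than counting noise. Counts of calls in 4sU-seq are given with and without KO replicate 2.

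In steady-state RNA most subunit genes were modestly lower in KO cells. Of 53 tested, 31 fell, 9 rose and 13 did not pass the test, at an adjusted p of 0.05 in edgeR's quasi-likelihood test. Over all genes tested, 26.8% were lower and 21.5% higher, 48.4% together. Among protein-coding genes alone 35.4% were lower and 24.3% higher. The median log2 change of the members was -0.21, against 0.00 for all genes and -0.05 for protein-coding genes. Most changes were small: the members ranged from -0.67 (MED19) to 0.71 (MED31), and the median level in KO was 0.867 times that in Ctrl. In 42 of 53 genes the 3 KO libraries did not overlap the 3 Ctrl libraries, 32 of them with KO lower, where 56.1% of all genes did not overlap, 29.9% with KO lower and 26.1% with KO higher. Scaling moved this split. With scaling to the ERCC spike-in RNA, 9 members were lower and 7 higher (13.4% and 21.4% of all genes). With library size alone, which placed the median of all genes at 0.19, 11 members were lower and 15 higher (13.8% and 36.4% of all genes), and the members' median was -0.02.

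**Figure D1:**
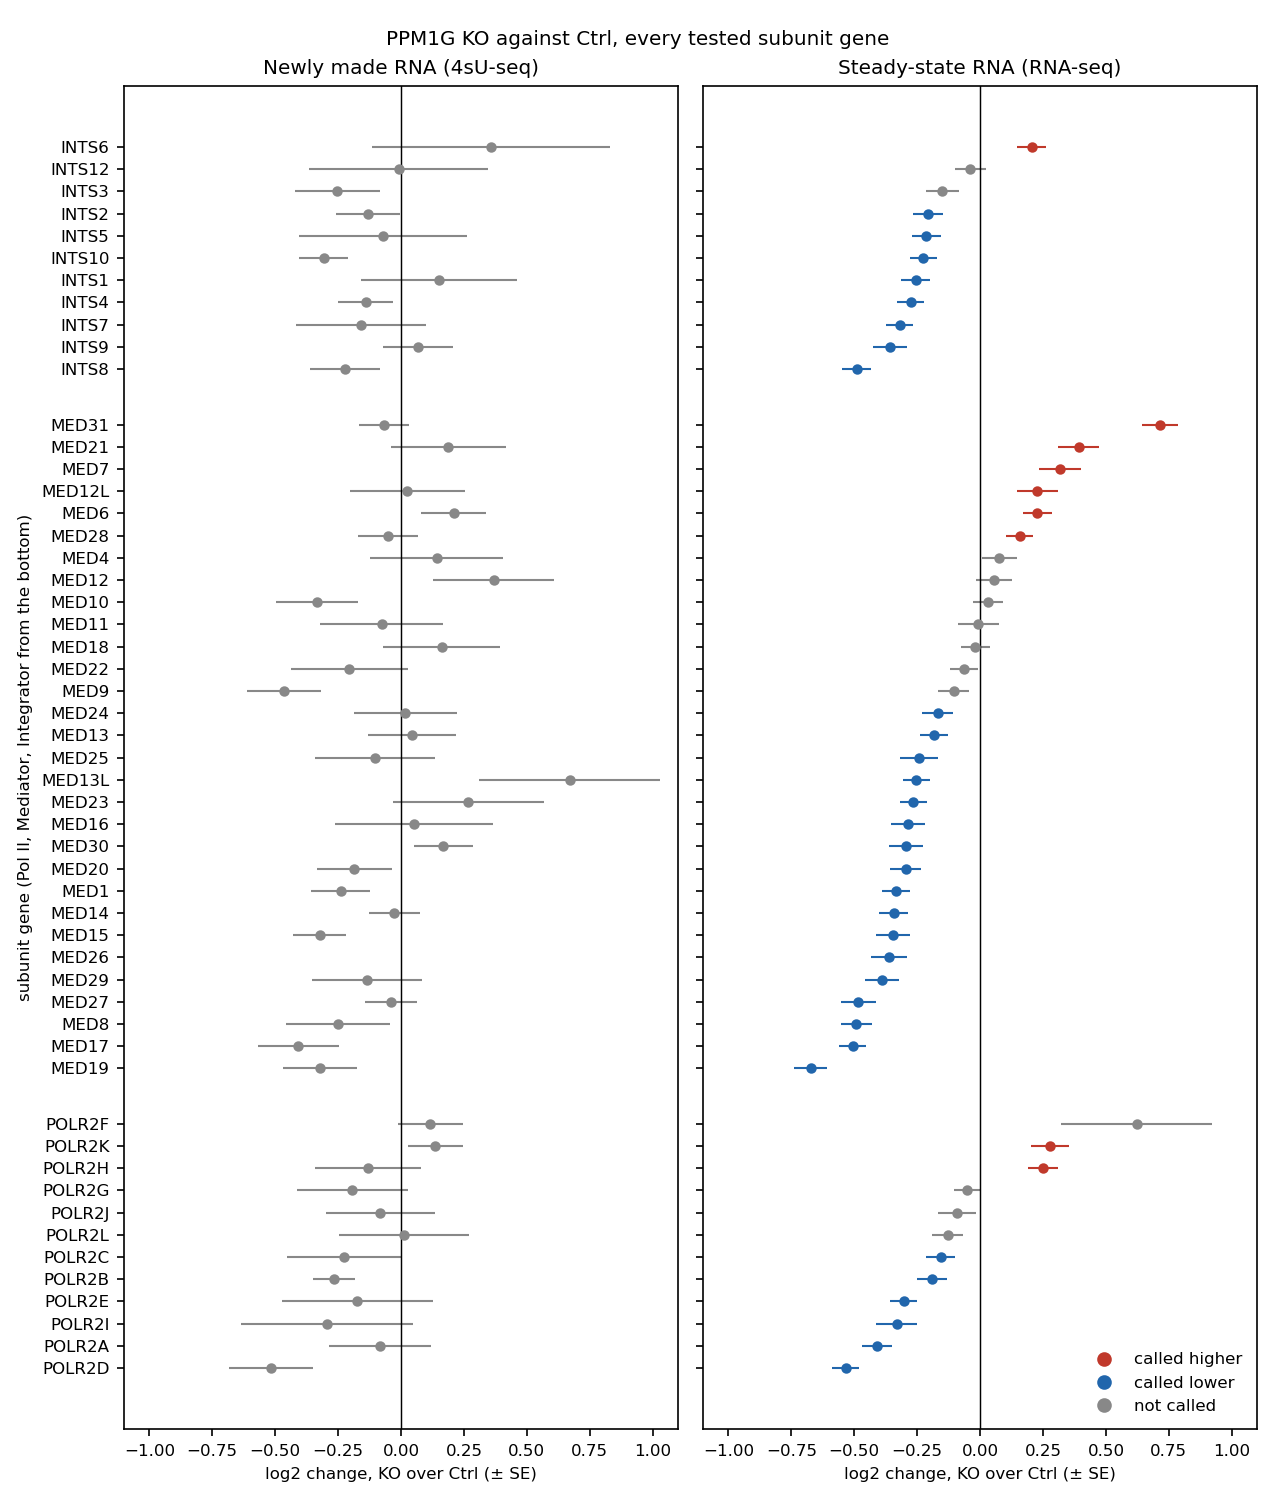
Log2 change (KO over Ctrl, x axis, bars ± SE, 3 libraries per group) of each subunit gene (y axis) in 4sU-seq (left) and RNA-seq (right), with genes called higher in red, lower in blue and not called in grey. In RNA-seq 31 genes are blue and 9 red, while in 4sU-seq none passes the test. MED7 and MED26 have no 4sU-seq counts and no point on the left.

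The RefSeq promoter table (GRCh38.p14) held 41 promoters of 37 members. The stretches below show what lies upstream of 5 subunit genes that fell in steady-state RNA, 1 or more from each complex and from the Mediator head, middle and tail. Each is 100 bases long, 5′ to 3′ on the gene's strand, and ends before the first GENCODE 29 exon or, where none is reached first (INTS1), at the RefSeq start. Capitals mark matches, on either strand, to a GC box (GGGCGG), an ETS-type site (CCGGAAG), an E-box (CACGTG), the TATA box (TATAAA) or the CCAAT box (CCAAT).
POLR2D, chr2:127858158-127858257, minus strand: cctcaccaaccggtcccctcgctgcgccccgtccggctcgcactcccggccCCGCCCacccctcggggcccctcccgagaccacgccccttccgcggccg
MED17, chr11:93784127-93784226, plus strand: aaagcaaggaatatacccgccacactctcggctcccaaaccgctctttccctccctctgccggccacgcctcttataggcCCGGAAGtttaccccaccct
MED19, chr11:57712324-57712423, minus strand: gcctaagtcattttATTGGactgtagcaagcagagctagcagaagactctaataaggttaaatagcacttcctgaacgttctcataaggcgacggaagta
MED27, chr9:132079909-132080008, minus strand: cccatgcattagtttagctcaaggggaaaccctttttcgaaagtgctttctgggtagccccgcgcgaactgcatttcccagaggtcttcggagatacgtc
INTS1, chr7:1504390-1504489, minus strand: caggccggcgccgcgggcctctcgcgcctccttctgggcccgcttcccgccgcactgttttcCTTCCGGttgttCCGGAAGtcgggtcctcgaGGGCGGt
The 5 stretches share no single motif. POLR2D has a GC box in a sequence of 81.0% GC, MED19 a CCAAT box in one of 42.0% GC, and MED27 none of the 5 motifs. INTS1 has 2 ETS-type matches, 1 on each strand, and a GC box. Over the 250 bases before each start, a GC box was found in 26 of the 41 member promoters (63.4%, against 42.6% of 35116 promoters), an ETS-type site in 11 (26.8% against 8.52%) and a CCAAT box in 12 (29.3% against 32.0%). The TATA box was found in 2 (4.88% against 10.7%) and the E-box in 2 (4.88% against 6.34%). Promoters of genes that fell held a GC box in 15 of 23 cases and an ETS-type site in 5, and promoters of genes that rose in 5 and 3 of 7. A match is a run of letters and not a measured binding site.

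Of the 12 Pol II genes, 6 fell and 2 rose in steady-state RNA, with a median log2 change of -0.14 (-0.06 with ERCC scaling and 0.04 with library size alone). ERCC scaling gave 2 lower and 2 higher, and library size alone 2 lower and 4 higher. Both genes of the catalytic core fell. POLR2A, the largest subunit, whose tail repeats are the main substrate of transcription kinases and phosphatases, stood at 593, 531 and 531 CPM in Ctrl and 411, 415 and 421 CPM in KO. All 3 KO libraries lay below all 3 Ctrl libraries. The log2 change was -0.41 ± 0.06 (adjusted p = 7.13e-05), a KO level 0.753 times that of Ctrl. POLR2A lies on the plus strand at chr17:7484366-7514616 (GENCODE 29, hg38). POLR2B, the second-largest subunit and the other wall of the cleft, was at 315, 325 and 350 CPM in Ctrl and 282, 280 and 305 CPM in KO. It fell by less, with a log2 change of -0.19 ± 0.06 (adjusted p = 0.0164). The call for POLR2B did not hold when KO replicate 1, KO replicate 2 or Ctrl replicate 3 was left out.

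The lowest Pol II gene was POLR2D, at chr2:127843551-127858157 on the minus strand, which with POLR2G forms the stalk that protrudes near the RNA exit channel. It measured 146, 142 and 151 CPM in Ctrl and 99.2, 101 and 103 CPM in KO, groups far apart compared with their spread. Its log2 change was -0.53 ± 0.05 (adjusted p = 3.63e-06). Its partner POLR2G did not pass the test, with 46.5, 48.5 and 47.9 CPM against 44.6, 45.7 and 47.8 CPM (-0.05 ± 0.05, adjusted p = 0.470). The stalk pair therefore had 1 member called and 1 with overlapping groups, though the difference between them was not tested.

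The jaw subunit POLR2I, known for its part in transcript cleavage and fidelity, measured 18.5, 15.3 and 19.1 CPM in Ctrl and 14.5, 13.6 and 14.0 CPM in KO (-0.33 ± 0.08, adjusted p = 0.00432). It shares 32.9% of its exon bases with exons of TBCB on the opposite strand, which also fell (-0.41 ± 0.06, adjusted p = 5.54e-05). The strand setting of the counting is not given in the sources used here, so reads of this pair cannot be told apart. POLR2C, of the alpha-like pair on which the polymerase assembles, fell slightly, from 137, 127 and 142 to 120, 123 and 121 CPM (-0.16 ± 0.06, adjusted p = 0.0394). That call was lost when any 1 library other than Ctrl replicate 2 was left out. POLR2J, the other gene of the pair, had 60.8, 49.4 and 57.1 CPM against 50.5, 50.7 and 56.1 CPM, with overlapping groups (-0.09 ± 0.08, adjusted p = 0.346). POLR2J has near-identical copies, POLR2J2 and POLR2J3, so its counts are uncertain.

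The 5 subunits that Pol II shares with Pol I and Pol III did not move as one. POLR2H rose from 91.5, 95.4 and 104 CPM to 114, 118 and 114 CPM (0.25 ± 0.06, adjusted p = 0.00376). POLR2K, a small zinc-binding subunit, rose from 85.2, 90.7 and 108 to 114, 115 and 115 CPM (0.28 ± 0.08, adjusted p = 0.00839). Neither gene overlapped between groups. In contrast POLR2E fell from 222, 207 and 224 to 174, 180 and 175 CPM (-0.30 ± 0.05, adjusted p = 0.000433). POLR2L was at 84.3, 77.8 and 84.9 CPM in Ctrl and 72.3, 74.9 and 78.6 CPM in KO and did not pass (-0.13 ± 0.06, adjusted p = 0.0928). POLR2F was counted at only 0.444, 0.359 and 0.259 CPM in Ctrl and 0.492, 0.462 and 0.746 CPM in KO, 8 to 24 reads per library. Its change of 0.62 ± 0.30 did not pass (adjusted p = 0.104), and in 4sU-seq the same gene ID had 5.81 to 7.28 CPM. Its RNA-seq count per exon length was 0.0503 ± 0.013 RPKM (SD, n = 3) in Ctrl, and why so few reads were counted was not tested. POLR2L and POLR2A, the highest of the complex, had 72.1 ± 3.5 and 66.0 ± 4.3 RPKM. POLR2L shares 22.5% of its exon bases with CD151 on the opposite strand, which was at 170 CPM in RNA-seq Ctrl. How much of the POLR2L count is CD151 reads was not tested. RPKM here is CPM per kilobase of merged exons, which suits comparison between genes.

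Of the 30 Mediator genes, 17 fell and 6 rose in steady-state RNA, with a median log2 change of -0.21 (-0.13 with ERCC scaling and -0.03 with library size alone). ERCC scaling gave 6 lower and 4 higher, and library size alone 7 lower and 10 higher. In the tail, as the modules were assigned here, every gene was called, in 1 direction. MED15, MED16, MED23, MED24, MED25, MED27 and MED29 all fell, 7 of 7, where 26.8% of all genes and 35.4% of protein-coding genes fell. With ERCC scaling and with library size alone, 2 of the 7 were still called lower (MED27 and MED29). In those settings 13.4% and 13.8% of all genes were lower, and with library size alone MED24 was slightly above 0. MED27, at chr9:131860107-132079908 on the minus strand, changed most, from 34.3, 28.9 and 33.5 to 23.3, 21.9 and 24.1 CPM (-0.48 ± 0.07, adjusted p = 8.55e-05). MED29 fell from 73.4, 61.0 and 69.9 to 52.3, 50.8 and 53.0 CPM (-0.39 ± 0.07, adjusted p = 0.000363). MED15, a target of activators in the sterol and TGF-beta pathways, fell from 105, 88.9 and 91.9 to 75.1, 76.7 and 72.8 CPM (-0.35 ± 0.07, adjusted p = 0.000784).

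The other tail genes changed by less. MED16 had a log2 change of -0.29 ± 0.07 (78.1 to 91.3 CPM in Ctrl, 64.9 to 69.9 in KO). MED23, which binds the activators ELK1 and E1A, had -0.27 ± 0.05 (40.7 to 41.7 against 32.9 to 35.4 CPM). For MED25 the change was -0.24 ± 0.08 (54.9 to 68.6 against 49.3 to 53.3 CPM), and for MED24 -0.17 ± 0.06 (113 to 129 against 104 to 109 CPM). All 7 tail genes kept the KO libraries below the Ctrl libraries, as 29.9% of all genes did. The scaffold MED14, which connects head, middle and tail, fell from 102, 95.7 and 93.4 to 76.3, 75.6 and 78.0 CPM (-0.34 ± 0.06, adjusted p = 0.000244).

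The head and middle modules were mixed. In the head, 4 of 9 genes fell and 2 rose (2 lower and 1 higher with ERCC scaling, 2 lower and 3 higher with library size alone). MED17, the central architectural subunit of the head, at chr11:93784227-93814963 on the plus strand, measured 98.3, 99.4 and 99.5 CPM in Ctrl and 71.0, 68.2 and 70.1 CPM in KO. Both groups were tight, and the log2 change was -0.51 ± 0.05 (adjusted p = 5.26e-06). MED8 fell from 29.2, 29.3 and 27.9 to 19.8, 19.7 and 22.0 CPM (-0.49 ± 0.06, adjusted p = 2.06e-05). MED20 (-0.30 ± 0.06, 31.4 to 33.3 against 24.1 to 27.6 CPM) and MED30 (-0.30 ± 0.07, 21.4 to 24.3 against 17.7 to 19.7 CPM) also fell. MED6 rose from 47.7, 46.0 and 51.4 to 56.7, 56.2 and 56.8 CPM (0.23 ± 0.06, adjusted p = 0.00482), and MED28 rose from 68.7, 68.8 and 69.1 to 76.1, 76.1 and 78.3 CPM (0.16 ± 0.05, adjusted p = 0.0246). The MED28 call was lost without any 1 of the 3 KO libraries. MED11, MED18 and MED22 did not pass, with changes of -0.01, -0.02 and -0.06.

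The middle held both ends of the range, with 3 of 9 genes lower and 3 higher (2 lower and 3 higher with ERCC scaling, 2 lower and 5 higher with library size alone). MED19, at chr11:57703714-57712323 on the minus strand, which helps hold the middle to Pol II, was at 23.4, 21.0 and 21.0 CPM in Ctrl and 13.3, 13.9 and 13.9 CPM in KO. It fell to 0.628 times its Ctrl level (-0.67 ± 0.07, adjusted p = 2.61e-06). MED1, the subunit through which nuclear receptors contact Mediator, fell from 224, 202 and 205 to 167, 163 and 170 CPM (-0.33 ± 0.06, adjusted p = 0.000298). MED26, which links Mediator to elongation factors, fell from 21.6, 17.99 and 20.2 to 15.0, 15.9 and 15.5 CPM (-0.36 ± 0.07, adjusted p = 0.00101). The highest change of any subunit was that of MED31, a small subunit of the middle at chr17:6643315-6651634 on the minus strand. It rose from 10.1, 9.98 and 11.1 to 16.5, 18.03 and 16.6 CPM, a 1.64-fold increase (0.71 ± 0.07, adjusted p = 3.33e-06). MED21 and MED7, which pair to form the hinge of the middle, both rose. MED21 went from 40.1, 44.6 and 52.4 to 58.3, 59.4 and 61.7 CPM (0.39 ± 0.08, adjusted p = 0.00129), and MED7 from 11.1, 11.95 and 14.1 to 16.1, 15.2 and 14.9 CPM (0.32 ± 0.08, adjusted p = 0.00711). MED4, MED9 and MED10 did not pass (0.08, -0.11 and 0.03).

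In the kinase module 1 gene rose and 2 fell (0 of 4 called with ERCC scaling, 2 higher and 0 lower with library size alone). No difference between paralogs was tested. MED12, which activates the kinase, was at 5.41 ± 0.56 RPKM in Ctrl (SD, n = 3) and its paralog MED12L at 0.766 ± 0.074 RPKM. MED12 did not pass the test, at 44.8, 39.1 and 36.6 CPM in Ctrl and 40.3, 43.7 and 41.5 CPM in KO (0.06 ± 0.07, adjusted p = 0.547). MED12L rose from 9.77, 10.5 and 8.69 to 11.2, 11.6 and 11.2 CPM (0.23 ± 0.08, adjusted p = 0.0332), a call lost without Ctrl replicate 3 or without any 1 KO library. MED13, which tethers the kinase module to the core, was at 27.7 ± 1.7 RPKM and MED13L at 7.78 ± 0.33 RPKM. Their merged exons were 12677 and 37364 bp long, and in CPM their mean Ctrl levels were closer, at 351 and 291. Both fell: MED13 from 337, 375 and 340 to 307, 303 and 316 CPM (-0.18 ± 0.06, adjusted p = 0.0167) and MED13L from 302, 293 and 277 to 243, 241 and 248 CPM (-0.25 ± 0.05, adjusted p = 0.00144). The MED13 call was lost without Ctrl replicate 2, KO replicate 1 or KO replicate 2. Of the module's partners, the kinase CDK8 fell slightly (-0.22 ± 0.05, adjusted p = 0.00372), from 64.9, 62.1 and 64.4 to 54.9, 54.5 and 55.3 CPM. CDK19 and cyclin C (CCNC) did not pass.

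Of the 11 Integrator genes, 8 fell and 1 rose in steady-state RNA, with a median log2 change of -0.23 (-0.14 with ERCC scaling and -0.04 with library size alone). ERCC scaling gave 1 lower and 1 higher, and library size alone 2 lower and 1 higher. All 5 genes of the backbone and shoulder fell, where 26.8% of all genes did. Of the 5, 1 was called with ERCC scaling and 2 with library size alone (13.4% and 13.8% of all genes were lower). INTS8, which holds the phosphatase 2A module on the complex, was lowest, at 132, 136 and 140 CPM in Ctrl and 97.1, 93.6 and 100 CPM in KO (-0.49 ± 0.06, adjusted p = 9.79e-06). Its exons share 20.7% of their bases with CCNE2 on the opposite strand, which rose (0.29 ± 0.07, adjusted p = 0.00204). INTS7 fell from 66.3, 63.3 and 65.0 to 52.4, 50.8 and 52.7 CPM (-0.32 ± 0.05, adjusted p = 0.000231). INTS1, the largest subunit, was highest of the 10 INTS genes with GENCODE 29 coordinates, at 29.7 ± 1.7 RPKM in Ctrl (SD, n = 3). It fell from 287, 262 and 258 to 220, 233 and 223 CPM (-0.26 ± 0.06, adjusted p = 0.00233). INTS2 (-0.21 ± 0.06, 99.4 to 107 against 86.3 to 94.5 CPM) and INTS5 (-0.21 ± 0.06, 50.1 to 51.8 against 40.9 to 45.6 CPM) fell least. The INTS2 call was lost without KO replicate 2 and the INTS5 call without KO replicate 1.

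Both members of the RNA cleavage module fell. INTS9, the partner of the endonuclease INTS11, went from 36.3, 30.2 and 32.9 to 25.9, 26.1 and 25.6 CPM (-0.36 ± 0.07, adjusted p = 0.000627). INTS4, the scaffold of that pair, went from 57.7, 53.3 and 54.6 to 44.9, 45.6 and 46.3 CPM (-0.28 ± 0.05, adjusted p = 0.000868). The endonuclease itself, under its symbol CPSF3L, fell from 132, 120 and 120 to 101, 99.9 and 99.9 CPM (-0.31 ± 0.06, adjusted p = 0.000566). INTS4 and INTS9 were not called with ERCC scaling or with library size alone. INTS10, of the arm, fell from 140, 140 and 147 to 119, 122 and 125 CPM (-0.23 ± 0.05, adjusted p = 0.00336). The exception was INTS6, the subunit that contacts phosphatase 2A, which rose from 85.3, 92.9 and 90.3 to 104, 100 and 105 CPM (0.20 ± 0.06, adjusted p = 0.00891). INTS6 was also the lowest of those 10 genes per exon length, at 3.51 ± 0.15 RPKM in Ctrl. Its merged exons were the longest of the 10, at 25509 bp, with INTS1 next at 9062 bp. In CPM its mean Ctrl level, 89.5, was above those of INTS4, INTS5, INTS7, INTS9 and INTS12 (31.2 to 64.8 CPM). INTS3 (-0.15 ± 0.06) and INTS12 (-0.04 ± 0.06) did not pass.

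**Figure D2:**
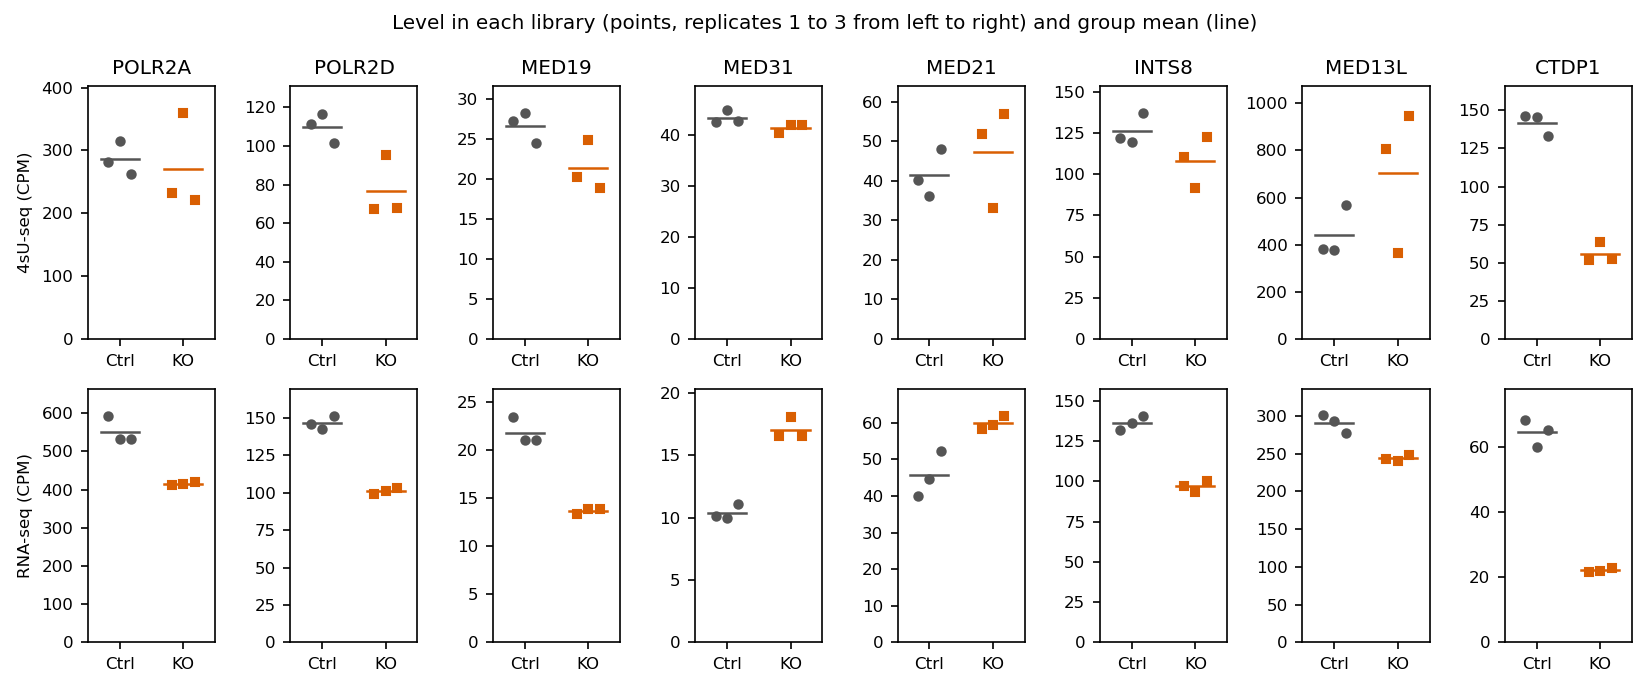
Level (TMM-scaled CPM, y axis from 0) of 7 subunit genes and CTDP1 in each Ctrl (grey circles) and KO (orange squares) library, replicates 1 to 3 from left to right, with the group mean as a line; 4sU-seq is the upper row and RNA-seq the lower. In RNA-seq the KO points do not overlap the Ctrl points for any of the 8 genes. In 4sU-seq KO replicate 2 lies apart from replicates 1 and 3 for every gene shown but MED31.

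Of the 40 calls in steady-state RNA, 31 were kept without any 1 library and 16 under every alternative processing. The 16 were POLR2A, POLR2D, POLR2H and POLR2K of Pol II, MED1, MED6, MED7, MED8, MED17, MED19, MED21, MED27, MED29 and MED31 of Mediator, and INTS6 and INTS8 of Integrator. Besides the genes named above, the calls of MED24 and MED25 were also lost without single libraries: MED24 without Ctrl replicate 1 or 3 or any KO library, and MED25 without Ctrl replicate 1 or KO replicate 1. When the similar KO replicates 1 and 2 were added into 1 library, 32 of the 40 calls were kept. Over all genes, 48.4% were called with all libraries, 39.4% to 48.3% without 1 library and 40.8% with those 2 added. How many of the 9871 calls over all genes were kept in these settings was not counted.

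Newly made RNA gave no call. Of 51 subunit genes tested in 4sU-seq, 0 passed edgeR's adjusted threshold, where 19.6% of all genes did (12.6% higher and 6.98% lower), and 6 had an unadjusted p under 0.05 (33.9% of all genes). The log2 change was negative in 33 and positive in 18, with a median of -0.08 (all genes 0.05). ERCC scaling, which placed the median of all genes at 0.27, gave 16 negative and 35 positive. The standard errors were larger than in RNA-seq, with a median of 0.20 against 0.06, and the members' median RNA-seq change of -0.21 is about as large as that error. The groups did not overlap in 10 of 51 genes (38.4% of all genes, 17.8% with KO lower and 20.6% with KO higher): 8 were lower in KO (POLR2B, POLR2D, MED9, MED15, MED17, MED31, INTS4 and INTS10) and POLR2K and MED30 were higher. The DESeq2 Wald test called 5 members, all lower: POLR2B, POLR2D, MED9, MED15 and INTS10 (26% of all genes called).

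The 4sU-seq values depended on KO replicate 2. For Pol II the median of the members' log2 level against the Ctrl mean was -0.34 in KO replicate 1 and -0.40 in KO replicate 3, with 10 of 12 genes below the Ctrl mean in each, but 0.26 in KO replicate 2, with 9 of 12 above it. The Ctrl libraries gave -0.06, 0.15 and -0.09. For Integrator the order was the other way, with -0.10, -0.34 and -0.04 in KO replicates 1, 2 and 3. Without KO replicate 2, 28 members were called lower and 1 higher, where 28.4% and 25.4% of all genes were. Without both libraries numbered 2, 25 were lower and 1 higher (24.8% and 25.5% of all genes). The 28 held 10 of 12 Pol II genes, all but POLR2F and POLR2K, with 14 Mediator and 4 Integrator genes. The cause of the difference between this library and the other 2 was not tested.

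**Figure D3:**
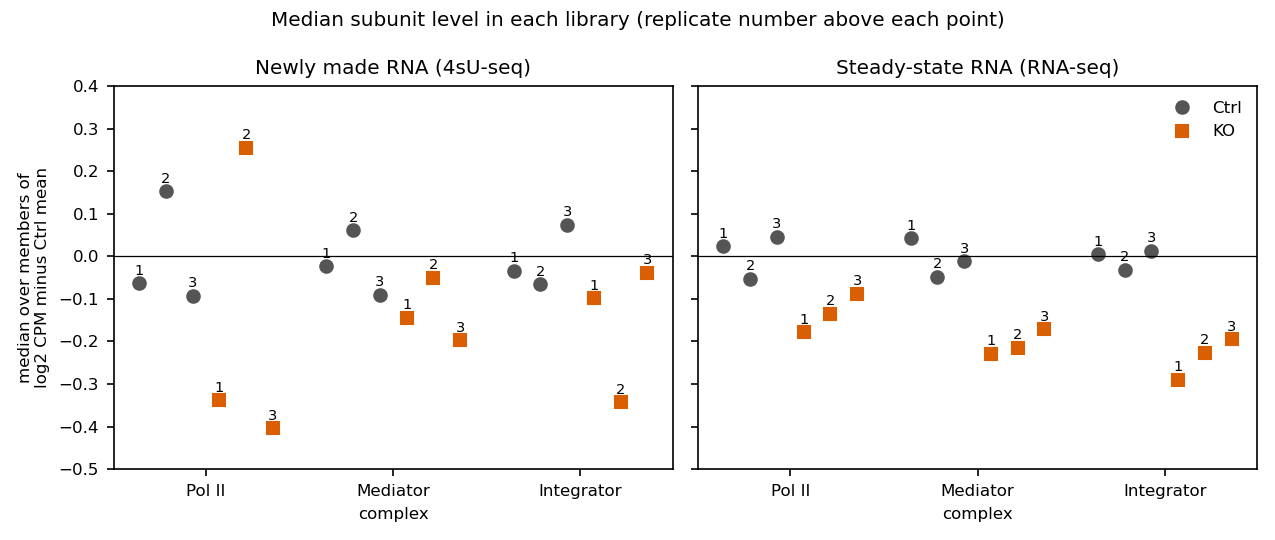
Median over the genes of each complex of log2 CPM minus the Ctrl mean (y axis) in each library (points, replicate number above), for 4sU-seq (left) and RNA-seq (right), Ctrl as grey circles and KO as orange squares. In RNA-seq the 3 KO libraries lie below the 3 Ctrl libraries for each complex, while in 4sU-seq KO replicate 2 is highest for Pol II and lowest for Integrator.

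Pol II genes give the clearest case. POLR2A was at 282, 314 and 263 CPM in 4sU-seq Ctrl and at 233, 359 and 220 CPM in KO, so that 2 KO libraries lay below the Ctrl range and 1 above it. Its log2 change was -0.08 ± 0.20 (adjusted p = 0.814) with all libraries and -0.41 ± 0.10 (adjusted p = 0.0116) without KO replicate 2. Without both libraries numbered 2 it was -0.30 ± 0.09 (adjusted p = 0.024). POLR2D was lower in all 3 KO libraries, at 111, 117 and 102 against 67.5, 95.4 and 67.6 CPM. It had the lowest 4sU-seq change of the members, -0.52 ± 0.17, which did not pass (adjusted p = 0.0767), and -0.77 ± 0.09 (adjusted p = 0.000836) without KO replicate 2. POLR2I had -0.29 ± 0.34 with all libraries and -0.85 ± 0.16 without that library, from 5.27, 7.27 and 5.87 against 3.78, 7.86 and 3.37 CPM. The least negative Pol II genes were POLR2K (0.14 ± 0.11) and POLR2F (0.12 ± 0.13), both not called with or without the library.

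In Mediator, MED9, a small subunit of the middle, was lowest at 81.0, 79.7 and 71.9 CPM in Ctrl and 50.9, 67.0 and 50.8 CPM in KO (-0.46 ± 0.15, adjusted p = 0.0734). In steady-state RNA the same gene did not pass (-0.11 ± 0.06, adjusted p = 0.178). MED17 was next, at 128, 120 and 143 against 101, 78.7 and 115 CPM (-0.41 ± 0.16, adjusted p = 0.132), and KO replicate 2 was its lowest library. At the other end stood the long kinase-module gene MED13L, with a span of 323848 bp, at 383, 379 and 568 CPM in Ctrl and 805, 363 and 946 CPM in KO. Of the KO libraries, 2 were above all Ctrl libraries and 1 was below them. Its change was 0.67 ± 0.36 (adjusted p = 0.248), and 0.91 ± 0.19 (adjusted p = 0.00610) without KO replicate 2. MED12 had 23.4, 26.4 and 22.3 against 26.9, 42.8 and 23.4 CPM (0.37 ± 0.24), with -0.00 ± 0.11 without that library. MED12L (0.02 ± 0.23) and MED13 (0.04 ± 0.18) were near 0. In Integrator the lowest were INTS10 (-0.31 ± 0.10, 89.4, 89.7 and 95.2 against 73.3, 71.1 and 77.2 CPM, adjusted p = 0.0745) and INTS3 (-0.25 ± 0.17). The highest were INTS6 (0.36 ± 0.47, 71.3, 60.5 and 127 against 131, 47.5 and 153 CPM) and INTS1 (0.15 ± 0.31). INTS1 turned to -0.36 ± 0.13 (adjusted p = 0.0486) without KO replicate 2, in which it stood at 210 CPM against 109 and 93.2 CPM in the other KO libraries. Without both libraries numbered 2 it was at -0.23 ± 0.11 and was not called (adjusted p = 0.129).

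**Figure D4:**
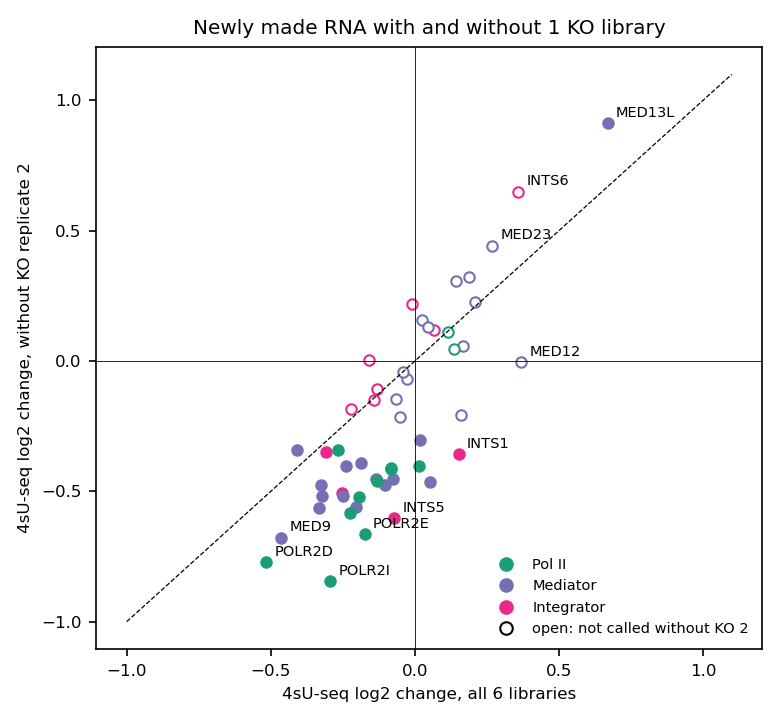
4sU-seq log2 change of 51 subunit genes with all 6 libraries (x axis) and without KO replicate 2 (y axis), coloured by complex, filled where called without that library, with the dashed line marking equal values. Most Pol II genes lie below the dashed line, and MED13L is the 1 gene called higher, at 0.91.

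MED7 and MED26 had 0 counts in all 6 4sU-seq libraries, which at the floor of 3 counts allows at most 0.0302 to 0.0365 CPM, while RNA-seq gave them 400 to 590 and 500 to 874 counts per library. Their gene spans are covered by other annotated genes to 99.7% and 100%. Among protein-coding genes with at least 500 RNA-seq counts in Ctrl, 77.1% of the 551 covered to 99% or more also had 0 counts in 4sU-seq, against 0.148% of the 3388 with no overlap. The 0 of MED7 and MED26 cannot be read as a lack of newly made RNA. INTS12 (77.6% covered), MED8 (68.6%), POLR2I (64.8%) and INTS5 (55.9%) are uncertain in 4sU-seq for the same overlap. In Ctrl they were at 3.27 to 5.21, 7.32 to 9.83, 5.27 to 7.27 and 19.6 to 26.5 CPM there.

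The KO effect was then compared between assays, as the genotype by assay interaction over all 12 libraries. MED31 alone passed, 1 of 51 members, where 2.5% of 15863 genes did. In 4sU-seq it was at 42.7, 44.9 and 42.8 CPM in Ctrl and 40.5, 42.0 and 41.9 CPM in KO, a change of -0.07 ± 0.10 against 0.71 ± 0.07 in RNA-seq. The difference, 4sU-seq minus RNA-seq, was -0.78 ± 0.11 (edgeR adjusted p = 0.00750). With ERCC scaling it was -0.63 and did not pass, in a setting where only 0.0441% of the 15863 genes passed. MED31 shares 58.3% of its exon bases with TXNDC17 on the opposite strand, which did not pass in RNA-seq (0.19 ± 0.09, adjusted p = 0.106) or in 4sU-seq (-0.11 ± 0.17). The TXNDC17 level was 47.2 CPM in RNA-seq Ctrl, above that of MED31, and how much of the MED31 count is TXNDC17 reads was not tested. MED13L had the largest difference in size, 0.94 with the 4sU-seq change above the RNA-seq change, which did not pass (adjusted p = 0.282). For it the difference was 1.27 ± 0.19 (adjusted p = 0.000880) without 4sU-seq KO replicate 2. Without that library 15 members passed, 9 with the 4sU-seq change above the RNA-seq change and 6 below (15.1% and 12.5% of all genes). MED13L, MED23, INTS9 and MED27 were the 4 highest and MED31 and POLR2H the lowest.

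Genes around the 3 complexes, in lists chosen with earlier results of these data known, were read from the same fits. Of 11 Integrator partners and subunits under other symbols, 7 fell and 1 rose in steady-state RNA, with a median of -0.24 (-0.06 with library size alone). ERCC scaling gave 2 lower and 1 higher, and library size alone 2 lower and 3 higher. Of all genes 26.8% fell and 21.5% rose in RNA-seq. With ERCC scaling the shares were 13.4% and 21.4%, and with library size alone 13.8% and 36.4%. C7orf26 (INTS15) was lowest, from 34.4, 33.6 and 34.0 to 22.8, 24.2 and 24.3 CPM (-0.51 ± 0.05, adjusted p = 5.64e-06). PPP2R1A, the scaffold of phosphatase 2A, fell from 254, 243 and 252 to 188, 190 and 190 CPM (-0.40 ± 0.05), and ASUN (INTS13) from 158, 157 and 172 to 130, 126 and 138 CPM (-0.30 ± 0.06). In 4sU-seq 0 of 10 were called, and 6 were lower without KO replicate 2, where 28.4% of all genes were lower.

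Among 17 factors that assemble or act on Pol II, 4 fell and 3 rose in steady-state RNA, shares near those of all genes (26.8% lower and 21.5% higher). ERCC scaling gave 2 lower and 3 higher, and library size alone 2 lower and 6 higher. The lowest by far was CTDP1, the phosphatase (FCP1) that removes phosphate from the POLR2A tail. It fell from 68.1, 59.8 and 65.2 to 21.7, 21.8 and 22.8 CPM in RNA-seq (-1.54 ± 0.06, adjusted p = 5.99e-10). In 4sU-seq it fell from 146, 146 and 133 to 51.7, 63.8 and 52.4 CPM (-1.34 ± 0.13, adjusted p = 0.00157), the 1 gene of 15 in the list called there. It was called without any 1 library and not with ERCC scaling, where 0.207% of all genes fell. Without KO replicate 2 the list had 6 lower and 1 higher (28.4% and 25.4% of all genes). In both assays all KO libraries were below all Ctrl libraries, KO replicate 2 included. RPRD1B, which binds the tail, fell in RNA-seq (-0.45 ± 0.05), as did RPRD2 (-0.34 ± 0.07), while the small tail phosphatase CTDSP2 rose (0.28 ± 0.05).

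Of 17 general transcription factor genes, 8 fell and 1 rose in RNA-seq (26.8% and 21.5% of all genes), and 3 fell in 4sU-seq. In RNA-seq the split was 3 lower and 2 higher with ERCC scaling (13.4% and 21.4% of all genes). With library size alone it was 3 lower and 6 higher (13.8% and 36.4% of all genes). In 4sU-seq, where 6.98% of all genes fell, 0 were called with ERCC scaling, with library size alone, or without any 1 library other than KO replicate 2. In those settings fewer of all genes fell: 0.207% with ERCC scaling, 4.04% with library size alone and 1.23% to 3.43% without 1 library. Without KO replicate 2, 6 were lower and 1 higher (28.4% and 25.4% of all genes). TBP, which binds the TATA box, fell in RNA-seq from 40.0, 36.8 and 35.6 to 23.0, 22.8 and 25.3 CPM (-0.67 ± 0.06, adjusted p = 2.54e-06) and in 4sU-seq from 52.2, 50.9 and 56.0 to 38.8, 35.0 and 42.7 CPM (-0.45 ± 0.12, adjusted p = 0.0459). The TFIIH helicase ERCC3 fell in both assays (-0.30 ± 0.05 and -0.47 ± 0.12). The TFIIF subunits GTF2F1 (-0.42 ± 0.06) and GTF2F2 (-0.45 ± 0.07) fell in RNA-seq alone, and GTF2H5 fell in 4sU-seq alone (-0.37 ± 0.10, adjusted p = 0.0499). Those differences between assays were not tested here. Of 15 TFIID TAF genes 10 fell in RNA-seq, where 26.8% of all genes fell. With ERCC scaling and with library size alone 3 fell in each (13.4% and 13.8% of all genes). The lowest were TAF3 (-0.65 ± 0.06), TAF4B (-0.49 ± 0.06), TAF5 (-0.44 ± 0.06) and TAF11 (-0.29 ± 0.05). In 4sU-seq TAF4 (-0.54 ± 0.10) and TAF5 (-0.46 ± 0.11) fell, 2 of 14. With ERCC scaling, or without any 1 Ctrl library or KO replicate 1, 0 TAF genes were called in 4sU-seq. Without KO replicate 3 TAF4 alone was called, and without KO replicate 2 the count was 4, where 53.8% of all genes were called. The shares of all genes that fell in the other settings are those given above.

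Most subunits that belong to Pol I or Pol III and not to Pol II also fell. Of 19, 15 fell and 1 rose in RNA-seq, where 26.8% of all genes fell and 21.5% rose. The median was -0.42 (-0.34 with ERCC scaling and -0.24 with library size alone). In 4sU-seq 5 of 18 fell (6.98% of all genes), with a median of -0.40. With ERCC scaling the median was -0.24 and 0 were called, where 0.207% of all genes fell. The 5 calls became 0 without Ctrl replicate 1 or Ctrl replicate 2 (1.23% and 1.46% of all genes lower). They became 1 (POLR1E) without KO replicate 1 (1.56% lower). Without Ctrl replicate 3 or KO replicate 3 they became 3 (2.36% and 3.43% lower). Without KO replicate 2 they became 13 (median -0.68), where 28.4% of all genes were lower and 25.4% higher. The largest changes in RNA-seq were those of POLR3C (-0.79 ± 0.06), POLR1E (-0.73 ± 0.05), CD3EAP (-0.68 ± 0.06) and POLR1A (-0.62 ± 0.06). POLR1E fell in 4sU-seq from 138, 148 and 130 to 67.1, 89.4 and 68.4 CPM (-0.89 ± 0.15, adjusted p = 0.00950), and POLR3K from 25.4, 29.3 and 24.3 to 11.7, 17.2 and 10.6 CPM (-0.9995 ± 0.21, adjusted p = 0.0207). POLR3C (-0.66 ± 0.11) and POLR1B (-0.57 ± 0.10) were also called lower. Whether these subunits differ from those of Pol II was not tested.

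Length differed between the groups of calls. Among members with coordinates in GENCODE 29 (50 of 53; INTS3, MED16 and MED22 had IDs without any), the 30 that fell had a median merged exon length of 5988 bp, the 9 that rose 3224 bp and the 11 not called 2019 bp. Members with 4 to 8 kb of exon had a median change of -0.27 in RNA-seq, where protein-coding genes of that length had -0.08. Among members under 2 kb the median was -0.09 against 0.00, at 2 to 4 kb -0.04 against -0.02, and at 8 kb and more -0.25 against -0.06. Ctrl level in RNA-seq differed too, with medians of 96.1, 48.4 and 32.5 CPM for members that fell, rose and were not called. The parts of length and level in the calls were not tested. Exon length and RNA-seq change had a Spearman rho of -0.15 over the 50 members and -0.05 over 13098 protein-coding genes, as a description across genes that share libraries. The members' 4sU-seq and RNA-seq changes had a rho of 0.44 over 51 genes, again as a description.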

How the data were processed

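HCT116 Ctrl and PPM1G KO cells gave 12 libraries in 4 groups of 3. The authors deposited raw counts per gene, whole numbers, in 1 table per assay. The submitters' processing notes name HISAT2 2.1.0, SAMtools 1.3, featureCounts and FastQC 0.11.2, and the build hg38. Not given in the sources used here are the annotation, the counting feature (exons or gene spans), the strand setting and the treatment of multi-mapping reads. They decide how overlapping genes and near-identical copies were counted.

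From these counts, ERCC rows (92 species) were set aside, filterByExpr (minimum count 10) and TMM were applied per assay, and KO was tested against Ctrl with edgeR 4.0.16 (glmQLFit, glmQLFTest, two-sided, R 4.3.3), with Benjamini-Hochberg adjustment over all genes and a threshold of 0.05. Standard errors follow from the F statistic (change over the root of F). Assays were compared by an interaction over 12 libraries. GENCODE 29, matched by 52890 gene IDs (94.3%), gave positions and merged exon lengths, and may not be the authors' annotation. Alternatives were DESeq2 1.42.0, other scalings and filters, a replicate block, leaving out each library, and merging 2 similar libraries. The code was tested on simulated data.

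Named are every called member, POLR2A, the MED12 and MED13 paralogs, the 2 highest and 2 lowest per complex and assay, and up to 4 called genes with the smallest p per list; other members and overlapping partners were named after their values were seen. The members and lists were chosen with earlier results of these data known. Same-numbered libraries were not treated as pairs.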

Additional observations from a re-analysis of the deposited data

Results flagged for a closer look

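MED31 was singled out because its KO effect differed between the assays by a test of the difference itself. The 4sU-seq change minus the RNA-seq change was -0.78 ± 0.11 on the log2 scale (edgeR interaction test over 12 libraries, adjusted p = 0.00750). All 3 KO libraries were above all 3 Ctrl libraries in RNA-seq, and all 3 were slightly below them in 4sU-seq. It was also called without 4sU-seq KO replicate 2 (-0.75 ± 0.11, adjusted p = 0.000658), where 27.5% of all genes were called. It was not called with ERCC scaling, where 0.0441% of all genes were called. MED31 shares 58.3% of its exon bases with exons of TXNDC17, while 14.7% of its span lies in TXNDC17. Whether both assays were counted over exons or over whole gene spans is not given. The part of this overlap in the difference was not tested.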

How the results depend on the processing

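The spread between libraries was wider in 4sU-seq (median standard error 0.20 against 0.06 in RNA-seq), although its libraries were deeper. POLR2F had only 8 to 24 reads per library in RNA-seq, and the cause of that low count was not tested. For the values below that changed, the cause was not tested unless the setting itself leaves out genes or libraries. In 4sU-seq, ERCC scaling gave median log2 changes of 0.16 for Mediator and 0.14 for Integrator, 0.065 for POLR2A and 0.17 for MED31. Library size alone gave 0.044 for the Mediator median, 0.010 for POLR2A and 0.023 for MED31. MED12L was at -0.014 with DESeq2 size factors and with the DESeq2 Wald test, and at -0.042 without a filter, where MED13 was at -0.023. The Wald test called 2 Pol II, 2 Mediator and 1 Integrator genes, 5 lower in all. Without both libraries numbered 2, 10 Pol II, 13 Mediator and 3 Integrator genes were called, 25 lower and 1 higher, the Mediator median was -0.18 and INTS1 -0.23. In RNA-seq, ERCC scaling left 4 Pol II, 10 Mediator and 2 Integrator calls, 9 of them lower, with medians of -0.0588, -0.13 and -0.14 and INTS12 at 0.046. Library size alone left 3 Integrator calls, with 15 members higher and 11 lower and medians of 0.043, -0.030 and -0.041 for Pol II, Mediator and Integrator. MED24 was then at 0.016, POLR2C at 0.030, MED13 at 0.00030 and INTS12 at 0.15. A mean of at least 50 counts gave medians of -0.0869, -0.15 and -0.16, and INTS12 at 0.030. For the difference between assays, ERCC scaling left 0 members called (0 at an unadjusted p under 0.05 as well), with MED31 at -0.63. Over all genes 0.0441% were called there. The Wald test called 2 members, MED30 besides MED31.

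Leaving out 1 library at a time, calls in 4sU-seq ranged from 0 to 10 for Pol II, 0 to 15 for Mediator and 0 to 4 for Integrator, with 0 to 28 lower and 0 to 1 higher; the upper ends came without KO replicate 2. The median log2 change ranged from -0.44 to 0.012 for Pol II and from -0.26 to -0.024 for Mediator. Single genes ranged from -0.41 to 0.045 (POLR2A), -0.16 to 0.16 (MED12L), -0.088 to 0.13 (MED13), -0.0046 to 0.53 (MED12) and -0.36 to 0.37 (INTS1). In RNA-seq the medians ranged from -0.17 to -0.084 for Pol II, -0.24 to -0.14 for Mediator and -0.25 to -0.18 for Integrator, and INTS12 from -0.069 to 0.037. Calls for the difference between assays ranged from 1 to 15.

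Libraries with the same replicate number did not all deviate together: the correlations of their deviations from the group means were -0.07, 0.71 and 0.70 in 4sU-seq and -0.04, 0.16 and 0.23 in RNA-seq, and 4sU-seq Ctrl replicate 1 correlated best with KO replicate 2. With a replicate block, 4sU-seq called 6907 genes in place of 4166. It then called 4 members, all lower, 1 of Pol II (POLR2D) and 3 of Mediator (MED9, MED15 and MED17), and MED12L was at -0.0045. All 40 RNA-seq calls were kept under the block.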
